A study of Mus musculus with 20 samples.

Results

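The Schlafen genes described here are 7 mouse genes, Slfn1, Slfn2, Slfn3, Slfn4, Slfn5, Slfn8 and Slfn9, taken by symbol from the 55335 genes listed for each of 20 tumours. All 7 were found, and all 7 passed the filter on low values. The tumours were grown from CT26, a BALB/c mouse line of colon carcinoma, and RNA was taken from whole tumour tissue. In the mutant anti-PD-1 group the cells were labelled POLE-mutant and the mice received an antibody against PD-1, a receptor that restrains activated T cells. The mutant PBS group carried the same cells and received PBS (phosphate-buffered saline). The vector anti-PD-1 and vector PBS groups carried CT26-vector cells and received the antibody or PBS. Each group holds 5 tumours, and the design asks whether the genotype changes the response to the antibody. The labels name no POLE mutation and no clone, and the sources used here do not give mouse age, sex, dose or sampling time. The series title names CHEK2 in place of POLE. Replicate numbers only name a tumour.

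Schlafen proteins are a family of mammals that interferon induces in many cell types. Mouse members are grouped by length. Slfn1 and Slfn2 are short, Slfn3 and Slfn4 are intermediate, and Slfn5, Slfn8 and Slfn9 are long and carry a helicase-like C-terminal domain. In mice, Slfn1 slows the growth of T cells when it is expressed at high levels, and Slfn2 keeps T cells and monocytes in a resting state. The human long member SLFN11 is recruited to stressed replication forks and cleaves transfer RNAs, and the mouse long genes belong to the same branch of the family.

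The 7 genes lie together on chromosome 11, between 82951349 and 83215154 of mm10 in the GENCODE vM21 annotation, a stretch of 263806 bases. In their order along the chromosome, Slfn5 spans 82951349 to 82964840 on the plus strand, Slfn9 spans 82978390 to 82991830 on the minus strand and Slfn8 spans 83002158 to 83020810 on the minus strand. Slfn2 (83065112 to 83070678), Slfn1 (83116849 to 83122670), Slfn4 (83175186 to 83190216) and Slfn3 (83191330 to 83215154) follow on the plus strand. All 7 matched a RefSeq promoter of GRCm38.p6, and the 250 bases before each RefSeq start were searched on both strands. The interferon-stimulated response element, a short DNA element found at many interferon-induced genes, was searched as TTTC, any 2 bases and TTTC. It was found in Slfn8, Slfn9 and Slfn5, and in 2.98% of 32851 promoters of the same length. The following stretches are shown because they set Slfn8, which rose in mutant tumours under anti-PD-1, beside Slfn9, for which no rise was called. They run 5′ to 3′ on the strand of the gene, with the matched letters in capitals.
Slfn8, chr11:83020819-83020888, minus strand: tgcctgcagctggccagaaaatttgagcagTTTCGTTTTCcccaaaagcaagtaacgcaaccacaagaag
Slfn9, chr11:82991836-82991905, minus strand: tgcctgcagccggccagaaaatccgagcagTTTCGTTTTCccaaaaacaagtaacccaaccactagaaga
Slfn5, chr11:82951937-82951966, plus strand: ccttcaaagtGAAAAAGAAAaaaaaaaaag

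The match lay 48 bases before the nearer of 2 RefSeq starts of Slfn8 and 136 before the other, and 45 bases before the Slfn9 start. In Slfn5 it lay in reverse, 155 bases before a RefSeq start that is inside the GENCODE span of the gene, so the stretch shown is not upstream of the GENCODE start. The Slfn8 and Slfn9 windows of 250 bases were identical at 79.8% of aligned positions, against 40.7% to 49.1% for the other pairs of members. Both Slfn8 and Slfn9 thus held the element. The interferon-gamma activated site was searched as TTCNNNGAA. It was found in 7.02% of the promoters and in no member. Slfn1, Slfn2, Slfn3 and Slfn4 held the core of an Ets factor site, ACTTCCTG, which is present in 2.69% of the promoters. These letters were chosen after the member promoters had been seen, so their presence in 4 members is a description. A match names letters in a window and not a bound site. The stretches of these 4 genes are shown because Slfn3, for which no rise was called, carries the same letters as 3 members that rose.
Slfn1, chr11:83116716-83116783, plus strand: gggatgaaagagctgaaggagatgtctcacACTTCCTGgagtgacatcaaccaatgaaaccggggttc
Slfn2, chr11:83065027-83065094, plus strand: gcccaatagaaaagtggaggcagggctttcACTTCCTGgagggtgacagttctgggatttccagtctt
Slfn4, chr11:83175083-83175150, plus strand: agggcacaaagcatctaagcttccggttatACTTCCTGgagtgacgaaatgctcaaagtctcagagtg
Slfn3, chr11:83191258-83191325, plus strand: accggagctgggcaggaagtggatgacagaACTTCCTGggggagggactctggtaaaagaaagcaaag

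The core lay 74 bases before the start of Slfn1, 55 before that of Slfn2, 73 before that of Slfn4 and 42 before that of Slfn3. Slfn3 also held it in reverse, as CAGGAAGT, 60 bases before its start.

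Levels are FPKM, fragments scaled by transcript length and library size, and the read depth behind them is unknown. Library totals ran from 328740 to 566913 FPKM. In 3 libraries the profile stood apart: the mean Spearman correlation with the others was 0.863 and 0.889 in mutant anti-PD-1 replicates 1 and 2 and 0.866 in vector anti-PD-1 replicate 1, against 0.911 to 0.919 in the remaining 17. These 3 libraries carry a sample identifier of M and a number, as do 11 of the 20, and 9 carry a number alone. What the style marks is not explained in the labels, and it is a term in the fits reported unless stated otherwise. Pole, the gene named in the labels, had 3.94 ± 1.69 FPKM in mutant anti-PD-1, 5.22 ± 0.872 in mutant PBS, 7.51 ± 2.28 in vector anti-PD-1 and 8.62 ± 1.64 in vector PBS tumours (SD, n = 5). Chek2 had 5.03 ± 1.32, 6.44 ± 1.34, 5.01 ± 1.34 and 6.43 ± 1.23 FPKM in the same groups. These levels do not show which allele was transcribed. Of the epithelial carcinoma markers, which check the labelled tumour type, 4 of 9 passed the filter. Their summed level was 5.97 to 88.6 FPKM in mutant anti-PD-1, with Cdx2 at 0 in all 5 tumours, 61.4 to 110 in mutant PBS, 34.7 to 82.3 in vector anti-PD-1 and 25.8 to 85 in vector PBS tumours. The value of 5.97 came from mutant anti-PD-1 replicate 1.

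Of the 7 members, Slfn1, Slfn2, Slfn4, Slfn5 and Slfn8, 5 in all, rose in mutant tumours under anti-PD-1 relative to mutant tumours under PBS. Slfn3 and Slfn9 did not pass the test. In this comparison 30.5% of the 13982 tested genes were called in either direction and 15.9% were called higher. No member was called between anti-PD-1 and PBS in vector tumours. Overlap of values between groups is described for the members alone, and its share over all tested genes was not counted. A log2 fold change is on the log2(FPKM + 1) scale, which understates changes of low genes, and is given with its SE and the Benjamini-Hochberg adjusted p of limma, with n = 5 per group and a threshold of 0.05.

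**Figure D1:**
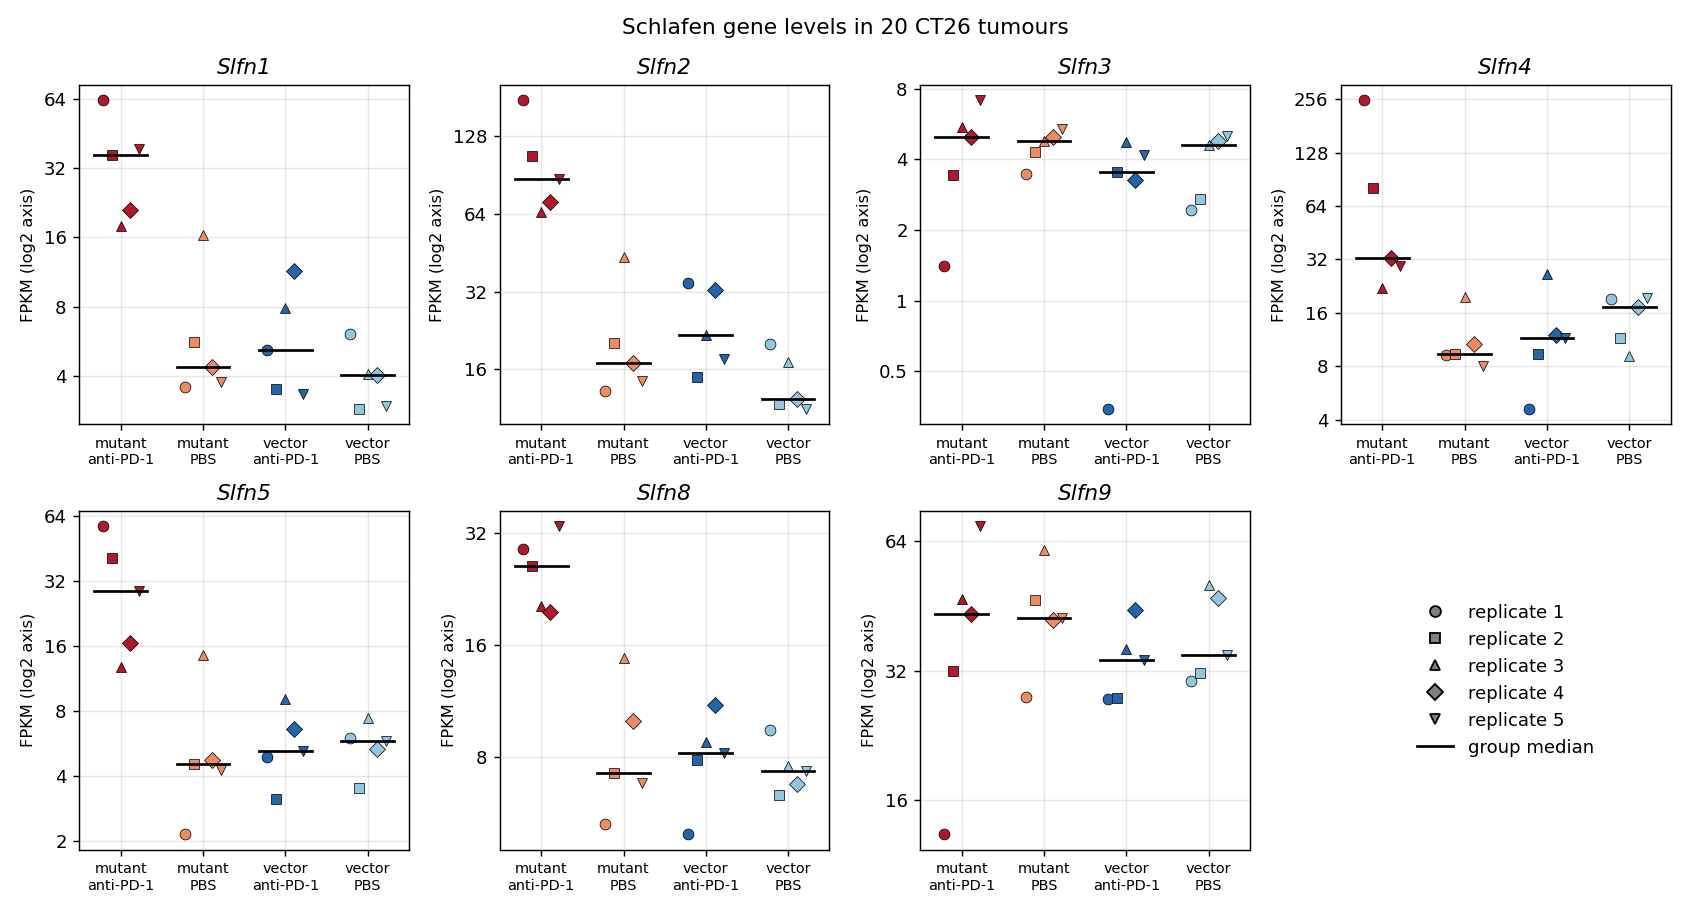
FPKM of each Schlafen gene (log2 axis) in each of 20 tumours, by group, with the symbol giving the replicate and the bar the group median. For Slfn1, Slfn2 and Slfn8 every mutant anti-PD-1 tumour lies above every tumour of the other 3 groups, while Slfn3 and Slfn9 overlap between all groups.

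The short members come first. Slfn2, which keeps T cells at rest, had 175, 107, 65.1, 70.8 and 87.1 FPKM in the mutant anti-PD-1 tumours and 13.2, 20.2, 43.5, 17 and 14.4 FPKM in the mutant PBS tumours. It had 34.6, 15, 21.8, 32.5 and 17.5 FPKM in the vector anti-PD-1 tumours and 20, 11.8, 17.1, 12.3 and 11.3 FPKM in the vector PBS tumours. The mutant anti-PD-1 tumours were all above the tumours of the other groups, and replicate 3 was high among the mutant PBS tumours. The group means were 101 ± 44.7 FPKM in mutant anti-PD-1 and 21.6 ± 12.5 FPKM in mutant PBS tumours (SD, n = 5 each), a ratio of 4.67. The log2 fold change was 2.32 ± 0.27 (limma, adjusted p = 1.53e-05). The gene Gm20234 overlaps Slfn2 and was at 0.689 FPKM or less in every tumour.

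Slfn1, the short member known for slowing T cell growth, had 63.1, 36.5, 17.9, 21.1 and 38.8 FPKM in the mutant anti-PD-1 tumours and 3.58, 5.61, 16.4, 4.37 and 3.76 FPKM in the mutant PBS tumours. It had 5.2, 3.51, 7.88, 11.4 and 3.32 FPKM in the vector anti-PD-1 tumours and 6.08, 2.88, 4.09, 4.04 and 2.95 FPKM in the vector PBS tumours. The mutant groups did not overlap, though mutant PBS replicate 3 came close to the lowest mutant anti-PD-1 tumour. The log2 fold change between the mutant groups was 2.41 ± 0.36 (limma, adjusted p = 9.31e-05), and the means stood in a ratio of 5.26. Slfn1 was lower than Slfn2 in every tumour. The ratio of Slfn1 to Slfn2 was 0.276 to 0.446 in mutant anti-PD-1, 0.257 to 0.378 in mutant PBS, 0.15 to 0.362 in vector anti-PD-1 and 0.24 to 0.33 in vector PBS tumours, so the ranges overlapped.

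Of the intermediate members, Slfn4 passed the test and Slfn3 did not. Slfn4, a myeloid gene induced in mouse macrophages by interferon and Toll-like receptor signals, had 252, 81.2, 22.2, 32.6 and 29.4 FPKM in the mutant anti-PD-1 tumours and 9.29, 9.38, 19.6, 10.6 and 8.05 FPKM in the mutant PBS tumours. It had 4.61, 9.35, 26.3, 12 and 11.5 FPKM in the vector anti-PD-1 tumours and 19.2, 11.5, 9.09, 17.3 and 19.4 FPKM in the vector PBS tumours. The mutant groups did not overlap, and the spread within mutant anti-PD-1 was the widest of any member, with a mean of 83.5 ± 97 FPKM (SD, n = 5) against 11.4 ± 4.69 FPKM in mutant PBS. The log2 fold change was 2.27 ± 0.52 (limma, adjusted p = 0.00339). Without mutant anti-PD-1 replicate 1 it was 1.64 (adjusted p = 0.0112), and without the 3 libraries that stood apart it was 1.13 (adjusted p = 0.0327).

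Slfn3, which has been linked to T cell subsets and to gut epithelial differentiation in rodents, had the lowest member mean in every group. In vector PBS tumours its mean was close to that of Slfn1 (3.93 against 4.01 FPKM), and its median was higher (4.62 against 4.04 FPKM). In mutant PBS tumours its median, 4.78 FPKM, was above those of Slfn1 (4.37 FPKM) and Slfn5 (4.54 FPKM). It ranged from 1.4 to 7.15 FPKM in mutant anti-PD-1, 3.46 to 5.37 in mutant PBS, 0.346 to 4.73 in vector anti-PD-1 and 2.44 to 5.06 in vector PBS tumours. The lowest values of mutant anti-PD-1 and of vector anti-PD-1 both came from replicate 1, libraries that stood apart. The log2 fold change between the mutant groups was -0.26 ± 0.28 (limma, adjusted p = 0.516), and it was 0.083 without those 3 libraries. Slfn3 and Slfn4 share sequence: of the 50-base words in their transcripts, 7.39% of those of Slfn3 and 6.28% of those of Slfn4 occur in the other.

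Among the long members, Slfn5, a nuclear protein, had 57.4, 40.9, 12.8, 16.5 and 28.7 FPKM in the mutant anti-PD-1 tumours and 2.15, 4.54, 14.5, 4.74 and 4.26 FPKM in the mutant PBS tumours. It had 4.89, 3.15, 9.08, 6.63 and 5.24 FPKM in the vector anti-PD-1 tumours and 5.98, 3.51, 7.44, 5.32 and 5.79 FPKM in the vector PBS tumours. The mutant groups overlapped, because mutant anti-PD-1 replicate 3 lay below mutant PBS replicate 3. The log2 fold change was 2.27 ± 0.40 (limma, adjusted p = 0.000368). The antisense gene Slfn5os shares 7.38% of the 50-base words of Slfn5 and was at 0.541 FPKM or less in every tumour; the sources used here do not state strandedness.

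Slfn8, which in mice reduces T cell growth when overexpressed, had 29, 26.1, 20.3, 19.6 and 33.4 FPKM in the mutant anti-PD-1 tumours and 5.28, 7.23, 14.7, 10 and 6.8 FPKM in the mutant PBS tumours. It had 4.94, 7.82, 8.74, 11 and 8.19 FPKM in the vector anti-PD-1 tumours and 9.45, 6.29, 7.54, 6.75 and 7.32 FPKM in the vector PBS tumours. The mutant anti-PD-1 tumours were again above all others, with a narrower spread than for Slfn4. Their mean was 25.7 ± 5.84 FPKM, against 8.8 ± 3.7 FPKM in mutant PBS (SD, n = 5 each), and the log2 fold change was 1.5 ± 0.23 (limma, adjusted p = 0.000119).

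Slfn9, the neighbour of Slfn8 and its closest relative by promoter sequence, had 13.3, 31.9, 46.9, 43.4 and 69.4 FPKM in the mutant anti-PD-1 tumours and 27.8, 46.8, 60.9, 42 and 42.3 FPKM in the mutant PBS tumours. It had 27.5, 27.6, 36, 44.2 and 33.9 FPKM in the vector anti-PD-1 tumours and 30.2, 31.5, 50.6, 47.2 and 34.8 FPKM in the vector PBS tumours. Mutant anti-PD-1 held both the lowest value of all 20 tumours, in replicate 1, and the highest, in replicate 5. The log2 fold change was -0.31 ± 0.30 (limma, adjusted p = 0.453), and without the 3 libraries that stood apart it was 0.26 (adjusted p = 0.541). Of the 50-base words of Slfn8, 9.3% occur in Slfn9, and 6.52% of those of Slfn9 occur in Slfn8, so reads from shared stretches could be assigned to either gene.

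The ratio of Slfn8 to Slfn9 in the same tumour does not depend on library scaling. It ranged from 0.433 to 2.18, with a median of 0.481, in mutant anti-PD-1 tumours. It ranged from 0.154 to 0.241 in mutant PBS (median 0.19), 0.18 to 0.283 in vector anti-PD-1 (median 0.243) and 0.143 to 0.313 in vector PBS tumours (median 0.2). Every mutant anti-PD-1 tumour was above every other tumour. The ratio was formed after the values of both genes had been seen and was not tested.

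The make-up of the family was described by the order and the shares of its members. Slfn9 had the highest mean in mutant PBS, vector anti-PD-1 and vector PBS tumours, and its range was clear of the next member in vector PBS. In mutant anti-PD-1 tumours the order of means was Slfn2, Slfn4, Slfn9, Slfn1, Slfn5, Slfn8 and Slfn3, and neighbours in that order overlapped except Slfn8 and Slfn3. The summed level of the 7 genes was 191 to 592 FPKM in mutant anti-PD-1, 64.7 to 174 in mutant PBS, 70 to 121 in vector anti-PD-1 and 70.3 to 100 in vector PBS tumours. The mean share of Slfn9 in that sum was 16.2% ± 9.77 in mutant anti-PD-1, 44% ± 5.74 in mutant PBS, 36.3% ± 3.82 in vector anti-PD-1 and 43.2% ± 7.19 in vector PBS tumours (SD, n = 5). The mean share of Slfn2 was 32% ± 2.21, 20.2% ± 3.04, 26.1% ± 9.45 and 16.2% ± 3.61 in the same groups. The share of Slfn8 stayed close to the same value, at 8.85% ± 2.56, 8.53% ± 1.27, 8.74% ± 1.98 and 8.39% ± 1.25.

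**Figure D2:**
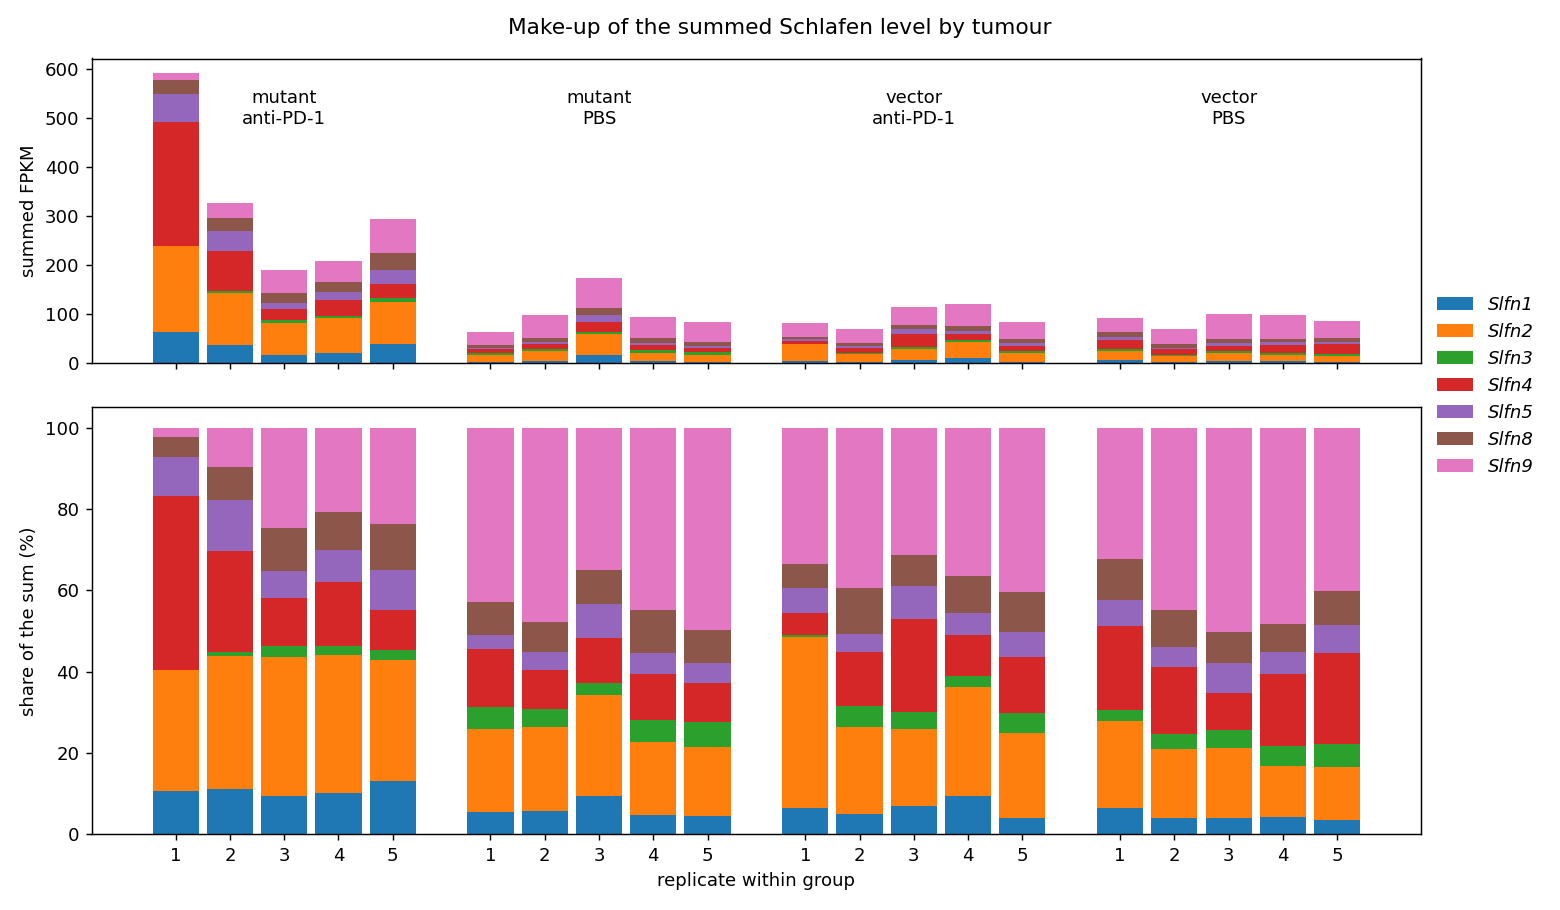
Summed FPKM of the 7 Schlafen genes (top) and the percent of that sum from each gene (bottom) in each of 20 tumours. Slfn9 makes up 2.25% to 24.6% of the sum in mutant anti-PD-1 tumours and 31.5% to 50.3% in the other groups.

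Mutant tumours were also compared with vector tumours under the same antibody, a comparison that shares the mutant anti-PD-1 tumours with the one above. Slfn1, Slfn2, Slfn4, Slfn5 and Slfn8 were called higher, where 32.9% of tested genes were called and 17.8% were called higher. The log2 fold changes were 2.41 ± 0.36 for Slfn1 (limma, adjusted p = 8.02e-05) and 2.10 ± 0.27 for Slfn2 (adjusted p = 2.48e-05). They were 2.16 ± 0.40 for Slfn5 (adjusted p = 0.000503) and 1.56 ± 0.23 for Slfn8 (adjusted p = 7.32e-05). The values of these 4 genes did not overlap between the groups, and how common that is among all tested genes was not counted. Slfn4 overlapped, since 1 mutant anti-PD-1 tumour lay below vector anti-PD-1 replicate 3, and its log2 fold change was 2.24 ± 0.52 (adjusted p = 0.00329). Without mutant anti-PD-1 replicate 1 the Slfn4 value was 1.61 (adjusted p = 0.0112). Without the 3 libraries that stood apart, the Slfn4 value was 0.85 (adjusted p = 0.103), and among libraries with a number alone it was 0.64 (adjusted p = 0.185), so that call was lost. Slfn3 had 0.29 ± 0.28 (adjusted p = 0.456) and Slfn9 had 0.04 ± 0.30 (adjusted p = 0.941).

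In vector tumours, anti-PD-1 against PBS gave no member past the threshold and 0% of all tested genes, with 426 of 13982 genes at an unadjusted p under 0.05. That number was 201 without vector PBS replicate 3 and 1266 without vector anti-PD-1 replicate 2. Slfn2 was the member furthest from 0, with a log2 fold change of 0.67 ± 0.27 (unadjusted p = 0.024, limma adjusted p = 0.724), and 3 of 5 vector anti-PD-1 tumours were above every vector PBS tumour. Slfn1 had 0.45 ± 0.35, Slfn8 had 0.08 ± 0.23 and Slfn5 had 0.01 ± 0.39, while Slfn3, Slfn4 and Slfn9 had -0.34 ± 0.28, -0.38 ± 0.52 and -0.18 ± 0.29. Under PBS, mutant against vector tumours also gave no member past the threshold, where 1.45% of tested genes were called, 0.529% higher and 0.923% lower. That share was 12.2% without the 3 libraries that stood apart and 19.4% with sample quality weights, and no member was called in either fit. Slfn1 had 0.46 ± 0.35 (adjusted p = 0.748), Slfn2 had 0.44 ± 0.27 (adjusted p = 0.638) and Slfn4 had -0.41 ± 0.52 (adjusted p = 0.899). The remaining members lay between -0.10 for Slfn5 and 0.21 for Slfn3. Without mutant PBS replicate 3, which was high for several members, the Slfn1 value was 0.15 and the Slfn2 value 0.21.

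**Figure D3:**
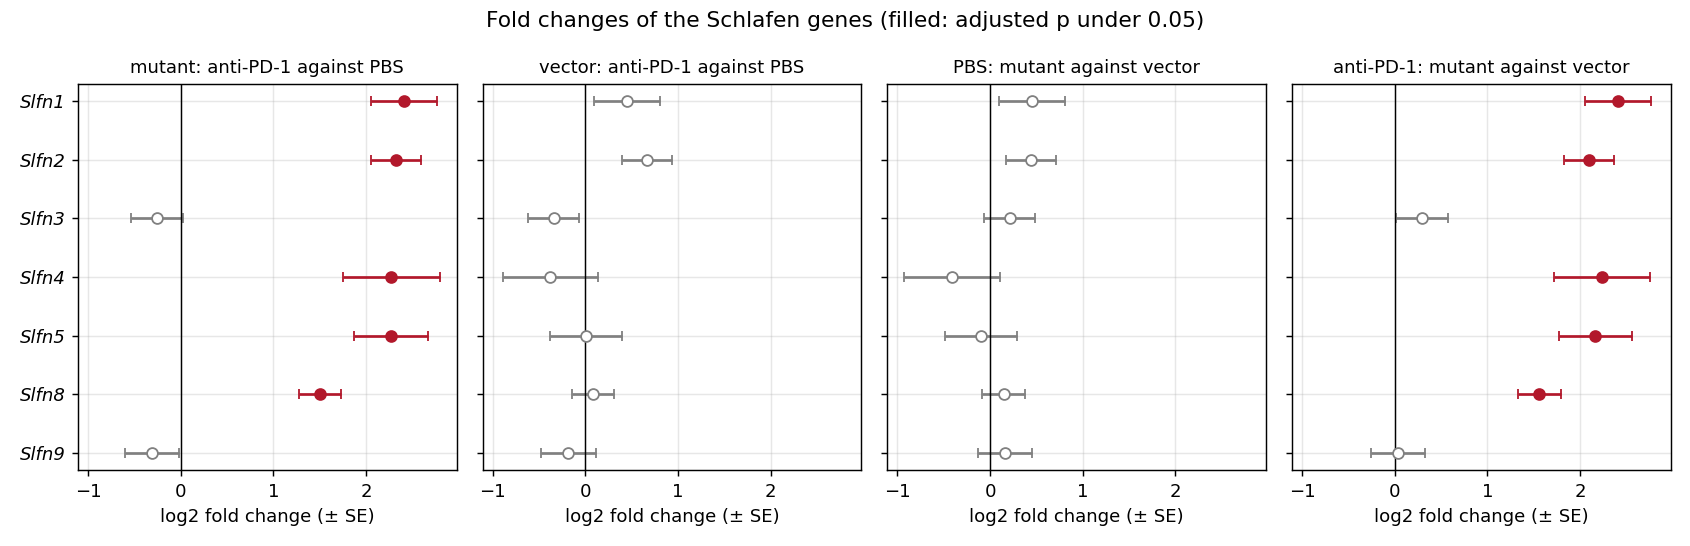
Log2 fold change (log2(FPKM + 1) scale, with SE) of each Schlafen gene in 4 comparisons, n = 5 tumours per group, with filled points where the adjusted p was under 0.05. Slfn1, Slfn2, Slfn4, Slfn5 and Slfn8 lie between 1.5 and 2.41 in the comparisons that include mutant anti-PD-1 tumours, and no point is filled in the other 2.

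The difference between the response in mutant tumours and the response in vector tumours was tested in the same fit, with 9.35% of tested genes called in either direction, 7.4% higher and 1.95% lower. All of the 5 members that rose were called. The difference was 1.96 ± 0.50 for Slfn1 (limma, adjusted p = 0.0222), 1.66 ± 0.38 for Slfn2 (adjusted p = 0.0133) and 2.65 ± 0.73 for Slfn4 (adjusted p = 0.0311). It was 2.26 ± 0.56 for Slfn5 (adjusted p = 0.0179) and 1.42 ± 0.32 for Slfn8 (adjusted p = 0.0122). Slfn3 had 0.08 ± 0.40 (adjusted p = 0.925) and Slfn9 had -0.13 ± 0.42 (adjusted p = 0.886). These calls were less stable than those of the single comparisons. Without the 3 libraries that stood apart 0 of the 5 were called (limma, adjusted p of 0.0713 for Slfn2 and 0.133 for Slfn5), with differences of 1.22 for Slfn8 to 1.65 for Slfn1 and all unadjusted p under 0.05. In that fit 105 of 13547 tested genes were called, or 0.775%. Without mutant anti-PD-1 replicate 1 alone, 3 were called, with Slfn1 at an adjusted p of 0.0574 and Slfn4 at 0.0523. Slfn4 also lost its call without any of 8 other libraries, with adjusted p up to 0.0765.

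Within libraries with an M-style identifier, the response of mutant tumours was 2.60 for Slfn1, 2.54 for Slfn2, 3.47 for Slfn4, 2.94 for Slfn5 and 1.61 for Slfn8. Within libraries with a number alone it was 2.34, 2.17, 1.49, 1.81 and 1.41 for the same genes. All 5 were called in each style (limma, adjusted p of 0.0184 or less). The M-style mutant anti-PD-1 tumours are replicates 1 and 2, both among the libraries that stood apart, so the M-style values rest on those 2, and the number-only values rest on the other 3. Slfn9 had -1.02 among M-style libraries and 0.30 among the others, neither past the threshold.

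The Schlafen results were set beside other genes of the interferon system, from lists chosen with earlier results of these data known. Of 26 type I interferon-stimulated genes, 25 rose and 0 fell in mutant anti-PD-1 relative to mutant PBS tumours, with a median log2 fold change of 1.56 against -0.10 over all tested genes. The antiviral gene Ifit3 had 66.2 ± 20.9 FPKM in mutant anti-PD-1 and 18 ± 12.3 FPKM in mutant PBS tumours (SD, n = 5 each), a log2 fold change of 2.05 ± 0.29 (limma, adjusted p = 6.44e-05). The antiviral enzyme gene Rsad2 had 2.19 ± 0.32 (adjusted p = 7.36e-05) and the transcription factor gene Irf7 had 2.17 ± 0.34 (adjusted p = 0.000143). The log2 fold changes of Slfn1, Slfn2, Slfn4 and Slfn5, from 2.27 to 2.41, lay above that list's median. That of Slfn8, 1.5, lay just under that median, and those of Slfn3 and Slfn9, -0.26 and -0.31, lay far below it. In vector tumours 0 of the 26 were called, with a median of 0.20, and under PBS 0 of the 26 were called between mutant and vector tumours, with a median of 0.16. Under anti-PD-1, 25 of the 26 were higher in mutant than in vector tumours, and 16 of the 26 were called for the difference of responses. The shares of all tested genes called higher there were 17.8% and 7.4%.

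Of 15 genes of interferon signalling, 12 rose in mutant anti-PD-1 relative to mutant PBS tumours and 0 fell. Their median log2 fold change was 0.66, and 15.9% of all tested genes were called higher in this comparison. Ifng, the gene of interferon-gamma, had 8.02 ± 1.68 FPKM in mutant anti-PD-1 and 1.25 ± 1.81 FPKM in mutant PBS tumours, a log2 fold change of 2.26 ± 0.33 (limma, adjusted p = 6.72e-05). Irf8, a transcription factor of myeloid cells, had 2.21 ± 0.35 (adjusted p = 0.000147), and Ifnar2, a subunit of the type I interferon receptor, had 1.08 ± 0.18 (adjusted p = 0.000244). In the vector response 0 of the 15 were called, with Irf9, Stat2 and Irf8 at log2 fold changes of 0.53, 0.66 and 0.65. Between mutant and vector tumours under PBS 0 of the 15 were called. Under anti-PD-1, 13 of the 15 were higher in mutant tumours, where 17.8% of all tested genes were called higher. For the difference of responses, 2 of the 15 were called, Ifnar2 and Ifng, where 9.35% of all tested genes were called. That count is too small to set the list apart from all genes.

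Because human SLFN11 acts at stressed replication forks, 20 genes of the replication stress response were also counted. In mutant anti-PD-1 relative to mutant PBS tumours 0 rose and 6 fell, where 14.6% of all tested genes were called lower, with a median log2 fold change of -0.30 against -0.10 over all tested genes. The single-stranded DNA binding gene Rpa3 had 35.1 ± 10.9 FPKM in mutant anti-PD-1 and 58.4 ± 6.43 FPKM in mutant PBS tumours, a log2 fold change of -0.80 ± 0.17 (limma, adjusted p = 0.00221). The fork protection gene Tipin had -0.70 ± 0.16 (adjusted p = 0.00344) and Rpa2 had -0.47 ± 0.14 (adjusted p = 0.019). The vector response, the PBS comparison and the difference of responses each gave 0 calls among the 20, and mutant against vector tumours under anti-PD-1 gave 3 lower, a share near the 15.1% of all tested genes called lower there.

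Most T cell and macrophage markers were called higher in the comparison in which the 5 members rose. In that comparison 15.9% of all tested genes were called higher. Of the T cell markers 12 of 13 were tested, and all 12 rose in mutant anti-PD-1 relative to mutant PBS tumours. Their summed level was 108 to 167 FPKM in mutant anti-PD-1, 2.28 to 51 in mutant PBS, 3.77 to 13.7 in vector anti-PD-1 and 1.32 to 3.9 in vector PBS tumours. Of 13 macrophage and monocyte markers 12 rose, and their sum was 1700 to 4400 FPKM in mutant anti-PD-1, 404 to 1130 in mutant PBS, 456 to 1160 in vector anti-PD-1 and 566 to 881 in vector PBS tumours. None of the T cell or macrophage markers was at 0 in all 5 tumours of a group. Mutant PBS replicate 3 was the highest of its group for Slfn1, Slfn2, Slfn4, Slfn5, Slfn8 and Slfn9. It had the highest T cell sum of its group, 51 FPKM, and the highest macrophage sum, 1130 FPKM. Its sums were also the highest for neutrophil markers (81.1 FPKM), skeletal muscle markers (1090 FPKM), interferon-stimulated genes (952 FPKM) and interferon signalling genes (293 FPKM). Its sums for epithelial markers and replication stress genes, 61.4 and 212 FPKM, were not the highest.

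Of 10 neutrophil markers 6 were tested and 2 rose, where 15.9% of all tested genes were called higher. The sum of the 10 markers was 624, 219, 99.6, 219 and 27.3 FPKM in the mutant anti-PD-1 tumours. Replicate 1, the highest, was also the highest for Slfn4. That match is particular neither to neutrophil markers nor to Slfn4. Replicate 1, a library that stood apart, was also the highest of its group for Slfn1, Slfn2 and Slfn5, though not for Slfn8. It had the highest T cell sum of its group, 167 FPKM, and the highest macrophage sum, 4400 FPKM. The neutrophil sum was 40.5 to 81.1 FPKM in mutant PBS, 26.2 to 86.1 in vector anti-PD-1 and 16.3 to 127 in vector PBS tumours. Camp was at 0 in every tumour of mutant PBS and vector anti-PD-1, and Ly6g and Ngp were at 0 in every tumour of vector PBS. Of 12 skeletal muscle markers 11 were tested and 1 rose, with sums of 96.3 to 1640 FPKM in mutant anti-PD-1, 1.48 to 1090 in mutant PBS, 2.63 to 520 in vector anti-PD-1 and 2.72 to 11.9 in vector PBS tumours. In bulk tissue, more cells of a type and more RNA per cell cannot be told apart. The part of these cells in the Schlafen results was not tested.

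The genes most like each member were found from their variation inside groups, as the Pearson correlation of log2(FPKM + 1) after each group's mean was removed, over 20 tumours. These correlations are descriptions over libraries that also differ in quality and cell content. Slfn2 was closest to Rac2, a GTPase gene of blood cells (r = 0.969), Aif1, a macrophage gene (0.958), and Fcgr1, an Fc receptor gene (0.954). Slfn1 was closest to Cnp (0.946), Ifi209 (0.94) and Aldh1l1 (0.934), and Slfn5 to Aldh1l1 (0.955), Ifi205 (0.942) and Cnp (0.941). Slfn8 was closest to Parp14, Sp100 and Tnfsf10, with r of 0.959, 0.934 and 0.928, all 3 of them interferon-induced genes. Slfn4 was closest to Stat5a (0.944), Pla2g15 (0.941) and Pde8a (0.933). Genes close to Slfn3 included Smchd1 (0.984) and Atm (0.984), and Slfn9 was closest to Trap1 (0.962), Lancl2 (0.934) and Omd (0.917).

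Between members, Slfn1 followed Slfn2 (r = 0.894) and Slfn5 (0.866) inside groups, and Slfn3 followed Slfn9 (0.696). Slfn4 and Slfn9 had r = -0.518, which was 0.191 without the 3 libraries that stood apart. Slfn8 and Slfn9 had r = 0.279, and 0.666 without those libraries. Slfn1 and Slfn9 had r of 0.00783, and 0.669 without them.

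**Figure D4:**
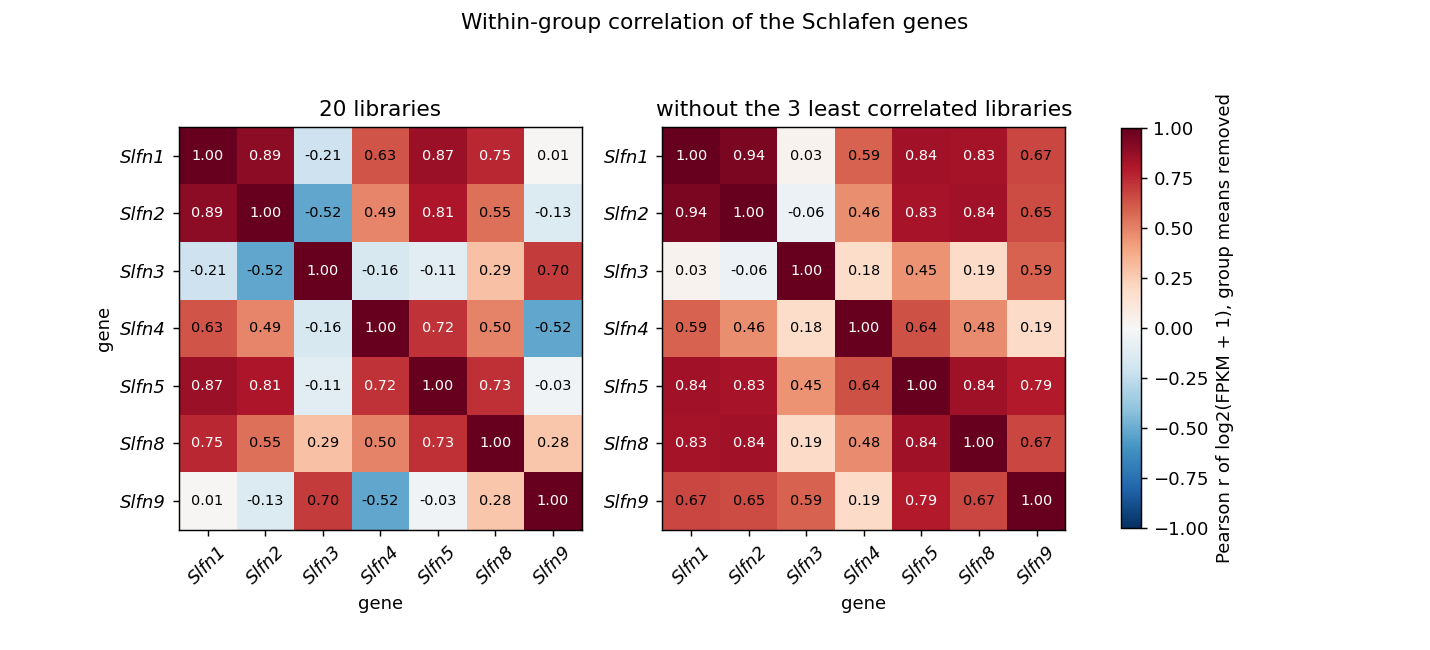
Pearson correlation of log2(FPKM + 1) between the Schlafen genes after removal of group means, over 20 libraries (left) and with the 3 libraries of lowest mean correlation removed (right). Slfn1, Slfn2, Slfn5 and Slfn8 are positive with each other in both panels, while the values of Slfn9 with Slfn1, Slfn2 and Slfn5 lie near 0 on the left and between 0.651 and 0.794 on the right.

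The rest of the family and of the locus gave further context. The pseudogene Slfn10-ps, which lies in the cluster, had 2.49 ± 0.262 FPKM in mutant anti-PD-1, 1.1 ± 0.518 in mutant PBS, 0.878 ± 0.549 in vector anti-PD-1 and 0.943 ± 0.172 in vector PBS tumours (SD, n = 5). It was higher in mutant anti-PD-1 than in mutant PBS tumours, by 0.73 ± 0.19 on the log2 scale (limma, adjusted p = 0.00641). It shares 10.1% of the 50-base words of Slfn8 and 8.1% of those of Slfn9, so its value is uncertain. Slfn14 reached 0.0269 FPKM at most and Slfnl1 0.0426 FPKM at most, and neither was tested. Inside the cluster or within 500 kb of it 23 other genes were tested, of which 7 rose and 2 fell in mutant anti-PD-1 relative to mutant PBS tumours. Over all tested genes 15.9% were called higher and 14.6% lower. The 7 include Slfn10-ps and Gm11427, which shares 6.45% of the 50-base words of Slfn3 and 4.01% of those of Slfn4. They also include the T cell chemokine gene Ccl5, with a log2 fold change of 4.59 (limma, adjusted p = 4.82e-06), and Ccl3 and Ccl4, with 1.62 and 1.96. The median of the 23 was 0.08, against -0.10 over all tested genes.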

How the data were processed

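The deposited files hold 1 FPKM value per gene and library. The submitters' processing notes give Cuffnorm, from which the unit was taken, and also name FastQC, STAR 2.5, DESeq and mm10 with no roles. The values do not sum to a common total. Low values were searched for whole reads, and 9.4% to 15.9% came out whole, so no counts were recovered and depth is unknown. The files list 55335 genes, of which 55154 matched a symbol in GENCODE vM21. A gene was kept where 5 or more libraries reached 1 FPKM, which left 13982, and log2(FPKM + 1) was fitted with limma 3.58.1 (R 4.3.3, trend on intensity), 4 group means and a term for identifier style. P-values were adjusted by Benjamini-Hochberg over all genes tested, with a threshold of 0.05, in 5 contrasts. The planned test for counts did not apply. Whether each library is a separate mouse is taken from the design text. The p-values judge group differences against the spread between these libraries inside groups.

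The members and gene lists were chosen with earlier results of these data known. Named genes were the 7 members, in each contrast up to 3 genes with the smallest p of each pathway list, and the 3 genes most correlated with each member, of which 1 is not reported here. Neighbours within 500 kb were counted, and the chemokine genes and Gm11427 among them were named after their values were seen. Shared 50-base words came from GENCODE transcripts and promoters from RefSeq GRCm38.p6, read in Python 3.11.15. The fit was tested on simulated data. Alternatives were a pseudocount of 0.1, other low-value filters, no trend, sample weights, no style term, each style alone, upper quartile and median ratio scaling, leaving out the 3 least correlated libraries, and leaving out each replicate.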

Additional observations from a re-analysis of the deposited data

Results flagged for a closer look

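In the mutant PBS group, replicate 3 lay far above the other 4 tumours for several members. Dixon's ratio, the gap to the nearest tumour divided by the group's range, was 0.842 for Slfn1 (16.4 against 5.61 FPKM in the next tumour) and 0.77 for Slfn2 (43.5 against 20.2 FPKM). It was 0.781 for Slfn4 (19.6 against 10.6 FPKM) and 0.791 for Slfn5 (14.5 against 4.74 FPKM). In the mutant anti-PD-1 group, replicate 1 stood apart for Slfn4, with a ratio of 0.743 (252 against 81.2 FPKM). The critical value for 5 samples is 0.71. Of 28 groups of values screened 5 passed it. Chance gives about 1 in 20 for independent and normally distributed values. The ratio was taken on FPKM without logs, and members vary together inside groups, so that rate cannot judge the 5. Of the 5, 4 are from the same tumour, mutant PBS replicate 3. That tumour also had the highest sums of its group for T cell (51 FPKM), macrophage (1130 FPKM) and neutrophil markers (81.1 FPKM, against 78.9 in the next tumour). The same held for skeletal muscle markers (1090 FPKM, against 1.48 to 193 in the other 4), interferon-stimulated genes (952 FPKM) and interferon signalling genes (293 FPKM). Their part in its Schlafen levels was not tested.

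In the test of the difference itself, the anti-PD-1 response differed between mutant and vector tumours for 5 members. Of all tested genes 9.35% were called there, 7.4% higher. On the log2 scale the differences were 1.96 for Slfn1, 1.66 for Slfn2, 2.65 for Slfn4, 2.26 for Slfn5 and 1.42 for Slfn8. Without the 3 least correlated libraries all of these calls were lost, with limma adjusted p from 0.0713 for Slfn2 to 0.133 for Slfn5. The Slfn4 call held in 19 of 31 alternatives.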

How the results depend on the processing

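The calls of Slfn1, Slfn2, Slfn4, Slfn5 and Slfn8 in mutant anti-PD-1 against mutant PBS tumours held in 21 of 21 alternatives each. Against vector anti-PD-1 tumours they did too, except Slfn4, with 19 of 21. The count of members called for the difference of responses was 5, but 2 among M-style libraries, 1 among number-only libraries and 0 without the 3 least correlated libraries, and it ranged from 3 to 5 when 1 replicate was left out. The low counts used fewer samples, which bears on the p-values, and the differences themselves also moved. For Slfn4 the difference was 2.65 in the main fit and 1.26 without the 3 libraries. It was 1.55 among number-only and 4.06 among M-style libraries. The cause was not tested. For Slfn4 the call for the difference of responses held in 19 of 31 alternatives. It failed without vector PBS replicate 1, 4 or 5, or vector anti-PD-1 replicate 2. The call was also lost without mutant PBS replicate 1, 2 or 5, or mutant anti-PD-1 replicate 1 or 2. In these fits the adjusted p of limma was 0.0523 to 0.0765. With no filter on low values the call failed too (limma, adjusted p = 0.0664).

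Directions turned in values that passed no threshold. In mutant anti-PD-1 against mutant PBS, with sample weights, number-only libraries and without the 3 libraries, Slfn3 was 0.0251, 0.15 and 0.083, and Slfn9 was 0.0843, 0.30 and 0.26. For the difference of responses Slfn9 was 0.31, 0.51 and 0.38 under the same settings. Among M-style libraries, Slfn3 was -0.17 for the difference of responses, Slfn9 was -0.62 in mutant against vector under anti-PD-1, Slfn5 was -0.17 and Slfn8 -0.0178 in the vector response, and Slfn5 was 0.00865 under PBS. Leaving out 1 replicate gave ranges of -0.50 to 0.0448 (Slfn9, mutant response), -0.21 to 0.21 (Slfn5) and -0.0227 to 0.24 (Slfn8, vector response). Under PBS the ranges were -0.42 to 0.18 (Slfn5), -0.0455 to 0.30 (Slfn8) and -0.00803 to 0.31 (Slfn9). Slfn9 ranged from -0.15 to 0.39 between mutant and vector under anti-PD-1. For the difference of responses the ranges were -0.21 to 0.29 (Slfn3) and -0.31 to 0.23 (Slfn9). The cause was not tested.

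Over all genes, the median log2 fold change in mutant anti-PD-1 against mutant PBS was -0.10, and 0.01 under median ratio scaling. Calls higher and lower numbered 2226 and 2045, against 2733 and 1257 under median ratio and 2468 and 1434 under upper quartile scaling. The 5 members were called under each. In mutant PBS against vector PBS tumours 203 genes were called, but 1650 without the 3 libraries, 2710 with sample weights, 11 among M-style libraries, 123 among number-only libraries and 83 (without vector PBS replicate 1) to 218 when 1 replicate was left out. Depth is unknown, so no counting limit can be set for the low values of Slfn3. No paired analysis was possible because the labels number no replicates, and the numbers used here follow accession order.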
